A study of Homo sapiens with 4 samples.

Results

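EGR1, EGR3, IER2, IER3, DUSP5, DUSP6, SPRY2, SPRY4, ETV4 and ETV5 form a list of 10 genes whose transcripts respond to growth factors through the kinase ERK. They were found on the arrays by gene symbol in the platform annotation, and all their probe sets were kept. All 10 genes had a probe set, with 22 of the 53617 probe sets of the array between them. A probe set is the group of probes that the array summarises to 1 value. Of the 22, 19 passed the intensity filter and were among the 11235 probe sets tested, and they stood for 8 of the genes. DUSP6 and ETV5 had no probe set past the filter.

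The list was compared between Baz2B-KO, a clone of the human near-haploid line Hap1 in which CRISPR-Cas9 removed a short piece of a coding exon of BAZ2B, and its unedited parent, the Hap1 control. Total RNA of each line was measured on 2 Affymetrix Human Gene 2.0 ST arrays, 4 in all. Both lines were grown in medium with fetal calf serum, handled apart from each other and detached with trypsin, and the labels name no growth factor treatment or starvation. The values are therefore levels at harvest with no stated stimulus. Whether handling or detachment changed them was not tested. The labels do not state whether the 2 arrays of each line stem from different cultures. Array names in the supplementary result table carry a mark that differs between replicates 1 and 2 and is the same in both lines. It may be a passage, but no source explains it. The p-values reflect array-to-array spread, which may be technical if the arrays share a culture. With 1 edited clone and 1 parent, the loss of Baz2B and any other difference between the lines cannot be told apart.

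ERK is the last kinase of a relay that starts when a growth factor binds its receptor tyrosine kinase and runs through RAS, RAF and MEK. Active ERK phosphorylates ETS-family partners of the serum response factor SRF, which sit on CArG boxes near early genes such as EGR1 and switch them on without new protein synthesis. The same relay induces its own brakes, the DUSP phosphatases that remove the phosphates from ERK and the Sprouty proteins that act between receptor and RAF, and it maintains the ETS factors ETV4 and ETV5 downstream of FGF receptors.

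Just before its start site, EGR1 holds CArG boxes and no CCGGAAG, the ETS motif searched for. IER2 holds CCGGAAG there and no CArG box. Shorter ETS cores were not searched for. The 250 bases before the start site are given for both, since these were the tested members with both Baz2B-KO arrays below both controls. The sequences come from RefSeq on GRCh38.p14. The window of EGR1 lies at chr5:138465229-138465478 and that of IER2 at chr19:13150161-13150410, both on the plus strand. Capitals mark the CArG boxes in EGR1 and the ETS motif, read on the other strand, in IER2.
EGR1: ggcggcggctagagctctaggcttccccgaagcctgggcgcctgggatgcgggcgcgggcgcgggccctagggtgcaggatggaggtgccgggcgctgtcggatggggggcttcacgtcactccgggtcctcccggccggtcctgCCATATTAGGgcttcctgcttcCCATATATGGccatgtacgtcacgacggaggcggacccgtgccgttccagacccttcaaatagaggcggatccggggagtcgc
IER2: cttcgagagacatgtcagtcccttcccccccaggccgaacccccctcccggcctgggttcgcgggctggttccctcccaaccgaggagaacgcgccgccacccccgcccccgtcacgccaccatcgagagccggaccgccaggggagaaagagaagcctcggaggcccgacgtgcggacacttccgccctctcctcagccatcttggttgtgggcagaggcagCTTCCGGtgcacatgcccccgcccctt
EGR1 holds 2 CArG boxes, between 105 and 74 bases before the start. A CArG box was found on either strand in 1.16% of the 35116 promoter windows of this length in the table, and the ETS motif CCGGAAG in 8.52%. The letters TGACG, the core of the element bound by CREB, found in 21.2% of all windows, matched 2 times in EGR1 and 1 time in IER2. The motifs overlap in no letter of these windows. The table holds 7 windows for 5 of the 10 members, which also include DUSP6, SPRY2 and SPRY4. No CArG box and no CCGGAAG was found in the windows of DUSP6, SPRY2 and SPRY4. A match is a string of letters and not a measured binding site.

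EGR1, a zinc finger transcription factor, was the member with the largest difference. Both probe sets that the platform annotation names EGR1 were lower in Baz2B-KO. On the brighter, 16989736, the log2 intensity was 5.54 and 6.13 in Baz2B-KO, against 6.97 and 7.05 in the Hap1 control. Both Baz2B-KO arrays lay at least 0.84 below both controls, and they differed from each other by 0.59, while the controls differed by 0.08. The mean was 5.83 ± 0.416 in Baz2B-KO and 7.01 ± 0.0568 in the control (SD, n = 2 each), a log2 fold change of -1.18 (standard error 0.188, 95% interval -1.62 to -0.74, adjusted p = 0.0513 from limma). It therefore missed the threshold of an adjusted p of 0.05, as the next probe set by p after the 75 that passed (rank 76 of 11235).

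On the dimmer probe set, 17000463, the log2 intensity was 3.52 and 3.44 in Baz2B-KO, against 4.33 and 4.55 in the Hap1 control. This fall of 0.96 on the log2 scale passed the test (standard error 0.122, 95% interval -1.25 to -0.68, adjusted p = 0.0206 from limma). The Baz2B-KO mean of 3.48 lies at the intensity filter of 3.5. Baz2B-KO replicate 2 lay under that filter, so the probe set was kept through its higher control values. Probe set 17000463 was the only member probe set called, 1 of 19 (5.26%), against 0.668% called over all tested probe sets and 0.392% called lower. The share rests on 1 probe set, and 11 of the 19 belong to IER3 alone. Taken by the brightest probe set, as for the other lists, 0 of the 8 tested member genes were called.

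The platform annotation gives both probe sets of EGR1 the same gene. The identifiers of the array follow the genome, strand by strand: of 11549 named probe sets whose gene has a strand in the RefSeq promoter table, 95.2% have the strand of most of the 20 probe sets with the nearest identifiers. EGR1 lies on the plus strand. Of the 20 neighbours of the brighter probe set 19 are plus-strand genes, and of the 20 neighbours of the dimmer one 19 are minus-strand genes. Probe positions were not used here, so whether the dimmer probe set reads the EGR1 transcript or RNA from the opposite strand was not tested.

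Whether EGR1 passed depended on the setting. The brighter probe set passed in 7 of 13 other settings (adjusted p between 0.00703 and 0.362 from limma) and the dimmer in 5 of 12 (adjusted p between 0.0102 and 0.208 from limma). The 13 include 1 in which both EGR1 probe sets were averaged, which passed and is not a test of the brighter alone. The difference stayed below 0 in all settings, between -1.47 and -0.88 for the brighter and between -1.07 and -0.85 for the dimmer. Both ends for the brighter probe set come from the fits without Baz2B-KO replicate 2 and without Baz2B-KO replicate 1, since these arrays differ by 0.59. Without Baz2B-KO replicate 2 the brighter probe set passed (adjusted p = 0.00703 from limma), and without any other array it did not. The dimmer probe set lost its call in each of the 4 fits without 1 array (adjusted p between 0.0846 and 0.208 from limma), and in the fit with the replicate number as a block (adjusted p = 0.0728 from limma).

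IER2, a small nuclear protein of the immediate early class, was lower in both Baz2B-KO arrays but did not pass the test. Its log2 intensity was 5.64 and 5.78 in Baz2B-KO, against 6.01 and 6.22 in the Hap1 control. The groups did not overlap, with a gap of 0.23 between the nearest arrays. The log2 fold change was -0.41 (standard error 0.125, 95% interval -0.70 to -0.11, adjusted p = 0.344 from limma). Of all tested probe sets, 2.40% had a log2 fold change at or below that of IER2.

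EGR3, a relative of EGR1 with a like DNA-binding domain, was at a like level in both lines. It had 4.11 and 3.92 in Baz2B-KO, against 4.06 and 3.85 in the Hap1 control, so that the groups overlapped. The log2 fold change was 0.06, with a 95% interval of -0.24 to 0.36. Its mean over the 4 arrays, 3.99, is close to the filter.

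IER3, which encodes a stress-inducible protein that restrains cell death, has 11 probe sets in the platform annotation but only 4 different sets of values. The gene lies in the MHC region of chromosome 6, and 5 of its probe sets share 1 set of values and 4 share another, so they are not independent measurements. The brighter probe sets averaged between 5.28 and 5.34 over the 4 arrays. Probe set 17017018, for example, had 5.22 and 5.46 in Baz2B-KO, against 5.12 and 5.56 in the Hap1 control. Its log2 fold change was -0.01, with a 95% interval of -0.40 to 0.39. The 5 dimmer probe sets, such as 17006392, had 4.21 and 4.20 in Baz2B-KO, against 3.95 and 4.15 in the Hap1 control, a log2 fold change of 0.15 (95% interval -0.12 to 0.43). Both Baz2B-KO arrays lay above both controls here, by at least 0.05, as in 21.9% of all tested probe sets. Most identifiers next to the brighter group are of minus-strand genes and most next to the dimmer group are of plus-strand genes. The strand of IER3 is not in the promoter table used here. None of the 11 passed the test.

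**Figure D1:**
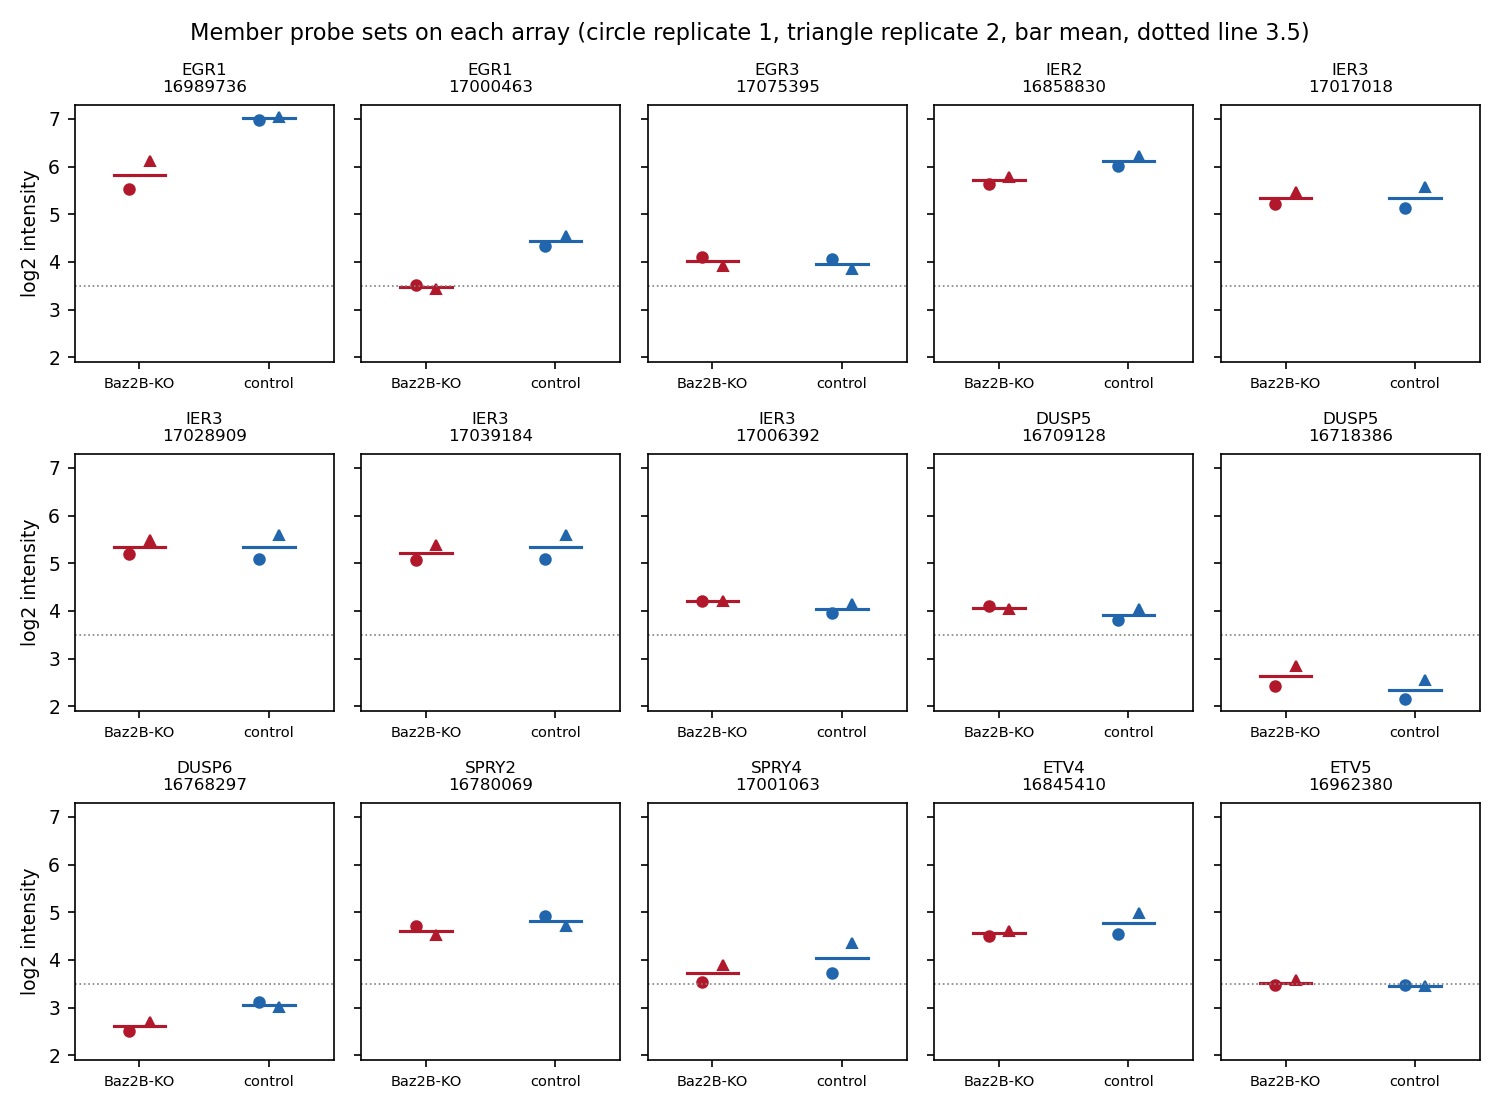
Log2 intensity (vertical axis) of the 15 different probe set profiles of the 10 genes in Baz2B-KO (red, left) and the Hap1 control (blue, right); circles are replicate 1, triangles replicate 2, bars the mean of 2 arrays, and the dotted line is the filter of 3.5. EGR1 shows the widest separation of the lines, and the profiles of EGR3, SPRY2, SPRY4, ETV4 and ETV5 overlap between them.

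The phosphatase genes among the members, DUSP5 and DUSP6, were at low levels in both lines. DUSP5, which acts on ERK in the nucleus, had 4.10 and 4.04 on probe set 16709128 in Baz2B-KO, against 3.81 and 4.04 in the Hap1 control. Its log2 fold change was 0.15 (95% interval -0.14 to 0.44). Its other probe set, 16718386, lay under the filter on all arrays, between 2.42 and 2.84 in Baz2B-KO and between 2.14 and 2.55 in the control.

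DUSP6, which acts on ERK in the cytoplasm and is among its most direct transcript readouts, was not tested because all 4 arrays lay under the filter. It had 2.50 and 2.70 in Baz2B-KO, against 3.11 and 3.01 in the Hap1 control. The Baz2B-KO arrays were thus both below the controls, by at least 0.30. Of all tested probe sets, 15.9% were placed this way, and the share among those under the filter was not computed. In the fit with no intensity filter, over 16098 probe sets, its log2 fold change was -0.45 (standard error 0.124, 95% interval -0.75 to -0.16, adjusted p = 0.38 from limma).

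The Sprouty genes, whose products dampen signals from receptor tyrosine kinases, had lower means in Baz2B-KO with overlapping arrays. SPRY2 had 4.71 and 4.52 in Baz2B-KO, against 4.92 and 4.71 in the Hap1 control. SPRY4 had 3.54 and 3.89 in Baz2B-KO, against 3.73 and 4.36 in the Hap1 control. The log2 fold change was -0.20 for SPRY2 (95% interval -0.51 to 0.10) and -0.32 for SPRY4 (95% interval -0.83 to 0.18). The controls of SPRY4 differed by 0.63, more than the lines did, and the difference was -0.01 without Hap1 control replicate 2 and -0.64 without Hap1 control replicate 1.

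The ETS factors ETV4 and ETV5, which in vertebrates act downstream of FGF receptors, gave no call either. ETV4 had 4.50 and 4.62 in Baz2B-KO, against 4.55 and 4.99 in the Hap1 control. Its log2 fold change was -0.21 (95% interval -0.58 to 0.17), and it was 0.01 without Hap1 control replicate 2 and -0.43 without Hap1 control replicate 1. ETV5 had 3.46 and 3.58 in Baz2B-KO, against 3.47 and 3.45 in the Hap1 control, with 1 array above the filter.

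Among the 8 genes tested, taken by their brightest probe set, 6 had a negative log2 fold change and the median was -0.205, beside a median of 0.02 over all 10473 tested genes, of which 45.7% were below 0. Counted by different profiles, 8 of 12 were below 0, against 45.2% of all tested probe sets. These genes passed the filter because they were bright enough in at least 2 arrays, and the untested DUSP6 and ETV5 are not among them. EGR1 and IER2 were the 2 of the 8 with both Baz2B-KO arrays below both controls, against 15.9% of all tested probe sets.

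**Figure D2:**
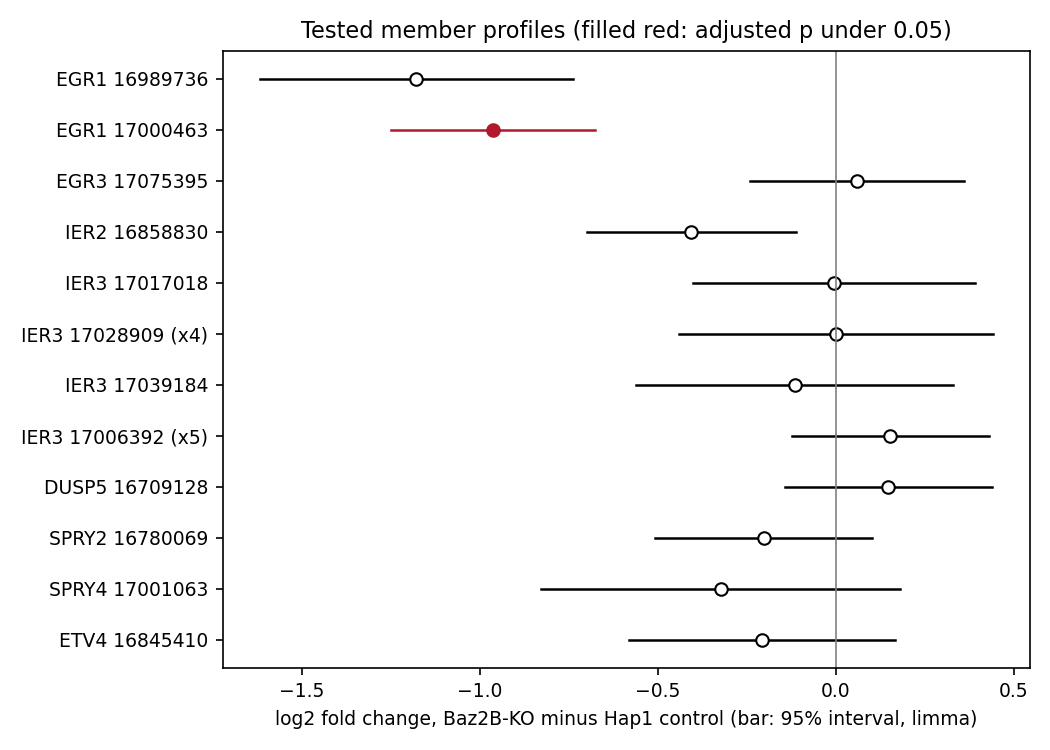
Log2 fold change, Baz2B-KO minus Hap1 control (horizontal axis), of the 12 different tested profiles (rows), with the 95% interval from limma as a bar; x4 and x5 mark values shared by several probe sets. Both EGR1 intervals and that of IER2 (-0.70 to -0.11) lie below 0, 1 EGR1 probe set passed the test, and the other 9 intervals hold 0.

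The genes whose 4 array values ran closest to those of EGR1 are on none of the lists used here. Likeness was the Euclidean distance over the 4 arrays between values centred on their own mean, over 10472 other tested genes, and smaller is closer. The 5 closest were ZNF256 (0.206), MFAP2 (0.261), ZFP90 (0.274), ZNF841 (0.308) and CA8 (0.365). ZNF256, ZFP90 and ZNF841 encode zinc finger proteins, MFAP2 a microfibril protein and CA8 a protein of the carbonic anhydrase family. All 5 were lower in Baz2B-KO, which follows from picking them for likeness to EGR1 on the same arrays, so no p-value is given. ZNF256 and MFAP2 lay under the filter in Baz2B-KO and were tested only because the controls passed it. Among the members, IER2 stood at rank 143 of this order with a distance of 0.840, SPRY4 at 349 and ETV4 at 814, while EGR3 stood at 7533 and DUSP5 at 8422. Over 4 arrays of 2 lines, this measure mostly follows the size of the difference between the lines.

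The members lie at the end of a pathway whose receptors include that encoded by PDGFRA. PDGFRA was much lower in Baz2B-KO, and so was EPHA3, another receptor tyrosine kinase gene. The PDGF receptor gene PDGFRA had 4.35 and 4.29 in Baz2B-KO, against 7.15 and 7.03 in the Hap1 control. The ephrin receptor gene EPHA3 had 4.28 and 4.28 in Baz2B-KO, against 6.71 and 6.70 in the Hap1 control. The log2 fold change was -2.77 for PDGFRA (adjusted p = 0.000246 from limma) and -2.43 for EPHA3 (adjusted p = 0.000492 from limma). The symbol of PDGFRA comes only from the first rows, by p, of the supplementary result table of the study, so this gene was found because its p was low. The stem cell factor receptor gene KIT had 4.76 and 4.59 in Baz2B-KO, against 5.29 and 5.18 in the Hap1 control, and did not pass (log2 fold change -0.56, adjusted p = 0.137 from limma).

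Next to these losses, EGR1 differed by -1.18 on the brighter probe set, which missed the threshold (adjusted p = 0.0513 from limma), and by -0.96 on the dimmer one, which passed. IER2 differed by -0.41, while SPRY2 differed by -0.20 and EGR3 by 0.06. The Baz2B-KO arrays differed by 0.59 on the brighter EGR1 probe set, where replicate 2 was the higher, and by 0.09 on the dimmer one, where replicate 1 was. They differed by 0.06 on PDGFRA and by 0.0019 on EPHA3. With 4 arrays no correlation was computed. Whether the receptor transcripts bear on the early genes was not tested. In bulk RNA, fewer cells with a transcript and less of it per cell cannot be told apart.

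**Figure D3:**
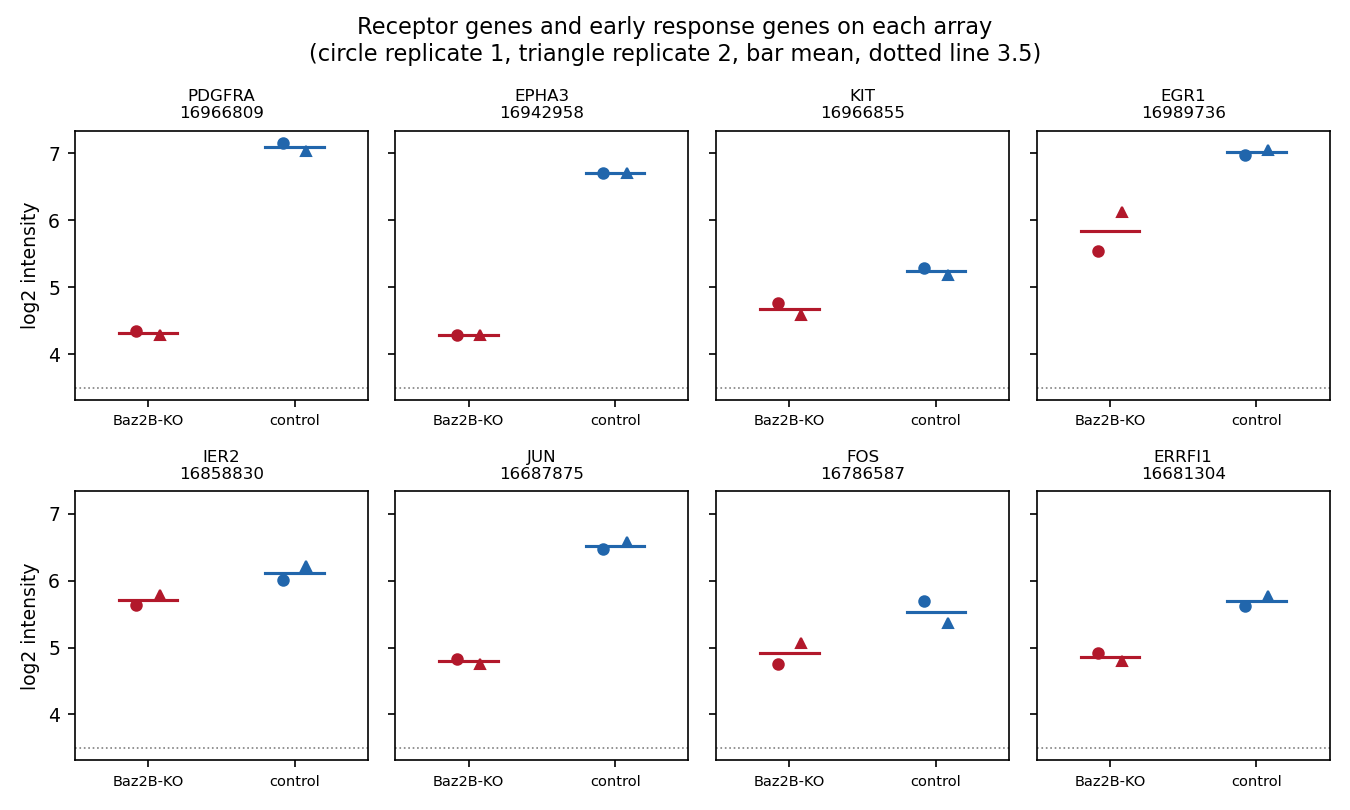
Log2 intensity (vertical axis) of the brightest probe set of 3 receptor genes and 5 response genes in Baz2B-KO (red, left) and the Hap1 control (blue, right), with replicate 1 as circles, replicate 2 as triangles, the mean as a bar and the filter of 3.5 as a dotted line. PDGFRA and EPHA3 differ by -2.77 and -2.43 with little spread, and EGR1 shows a wider spread between the Baz2B-KO arrays.

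Most other receptors of the list were measured and did not pass. Of 54 listed receptor tyrosine kinase genes, 34 were tested by their platform name, which leaves out PDGFRA. EPHA3 was lower, 0 were higher and 33 did not pass, and the median log2 fold change was 0.08. The bright receptor genes include IGF1R, the insulin-like growth factor receptor, at 6.74 and 6.89 in Baz2B-KO, against 7.22 and 7.07 in the Hap1 control (log2 fold change -0.33, adjusted p = 0.426 from limma). RYK, a Wnt co-receptor, differed by 0.09 and MET, the receptor of hepatocyte growth factor, by 0.10. EGFR, with 2.91 and 2.95 in Baz2B-KO, against 2.62 and 2.83 in the Hap1 control, lay under the filter.

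Of 47 ligand genes, 22 were tested and none passed, with a median of -0.02. FGF2, a ligand of the FGF receptors, had the highest mean of them on this scale, with 7.96 and 7.91 in Baz2B-KO, against 8.03 and 7.89 in the Hap1 control. PDGFC, a ligand of the PDGF receptor alpha, differed by -0.36 (95% interval -0.73 to 0.00, adjusted p = 0.508 from limma) and VEGFB by -0.17, while KITLG, the ligand of KIT, differed by 0.07.

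The relay itself gave no call. Of 32 listed genes of the RAS-ERK relay, which include ERK1 (MAPK3) and the kinases MKNK1 and MKNK2 that ERK activates, 19 were tested, 0 passed and 13 were below 0, and the median difference was -0.02 (adjusted p of at least 0.473 from limma). MAP2K1, which encodes the kinase MEK1, had 8.70 and 8.64 in Baz2B-KO, against 8.66 and 8.62 in the Hap1 control, and its 95% interval was -0.22 to 0.28. SHOC2, a scaffold that helps activate RAF, differed by -0.11 and NF1, a brake on RAS, by -0.02. The lowest was the RAS relative RRAS, at -0.39. Of 11 transcription factors and cofactors acting on early genes, 8 were tested and 0 passed (adjusted p of at least 0.576 from limma). SRF, which binds CArG boxes, had 7.84 and 8.04 in Baz2B-KO, against 7.55 and 7.89 in the Hap1 control. The SRF coactivator gene MRTFB differed by 0.14 and the ETS factor gene ETS2 by 0.04.

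Of 39 other early response genes, 25 were tested, 1 was lower, none was higher and 24 did not pass, with a median of -0.02. The called gene was JUN, an AP-1 subunit, which had 4.83 and 4.75 in Baz2B-KO, against 6.47 and 6.57 in the Hap1 control (a fall of 1.73 on the log2 scale, adjusted p = 0.000994 from limma). FOS, its AP-1 partner and like EGR1 a classic SRF target, had 4.75 and 5.07 in Baz2B-KO, against 5.69 and 5.36 in the Hap1 control (log2 fold change -0.61, adjusted p = 0.247 from limma). A second probe set of FOS, whose neighbours by identifier are minus-strand genes in 18 of 20 cases, differed by 0.18, although FOS lies on the plus strand. JUND differed by -0.43, KLF6 by -0.25 and MCL1, a survival factor gene, by -0.11.

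Of 19 other feedback inhibitors, 14 were tested, 1 was lower, none was higher and 13 did not pass, with a median of -0.12 and 10 of the 14 below 0. The called gene was ERRFI1, whose product binds and blocks the kinase domain of EGFR. It had 4.92 and 4.80 in Baz2B-KO, against 5.63 and 5.77 in the Hap1 control, a fall of 0.84 on the log2 scale (standard error 0.116, adjusted p = 0.0277 from limma). ERRFI1 passed in 6 of 13 other settings and in none of the 4 without 1 array, nor with the replicate number as a block (adjusted p = 0.0808 from limma). DUSP1, a broad MAP kinase phosphatase, had 6.49 and 6.45 in Baz2B-KO, against 6.73 and 6.82 in the Hap1 control (log2 fold change -0.31, adjusted p = 0.423 from limma). DUSP16 differed by 0.03 and PEA15, which holds ERK in the cytoplasm, by -0.15.

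A few more genes of these lists have a symbol only in the supplementary table, whose held rows were sorted by p, and were found because their p was low. None of those given here passed. SPRY1, another Sprouty gene, had 4.79 and 4.75 in Baz2B-KO, against 5.06 and 5.34 in the Hap1 control (log2 fold change -0.43, adjusted p = 0.329 from limma). SPRED2, a relative that blocks RAF activation, differed by -0.24. CCN1, a matricellular early gene, differed by -0.58 (adjusted p = 0.157 from limma), while BTG2, an antiproliferative early gene, had 8.461 and 8.708 in Baz2B-KO, against 8.004 and 8.222 in the Hap1 control (log2 fold change 0.47, adjusted p = 0.294 from limma). These 4 genes were chosen after their values were seen.

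**Figure D4:**
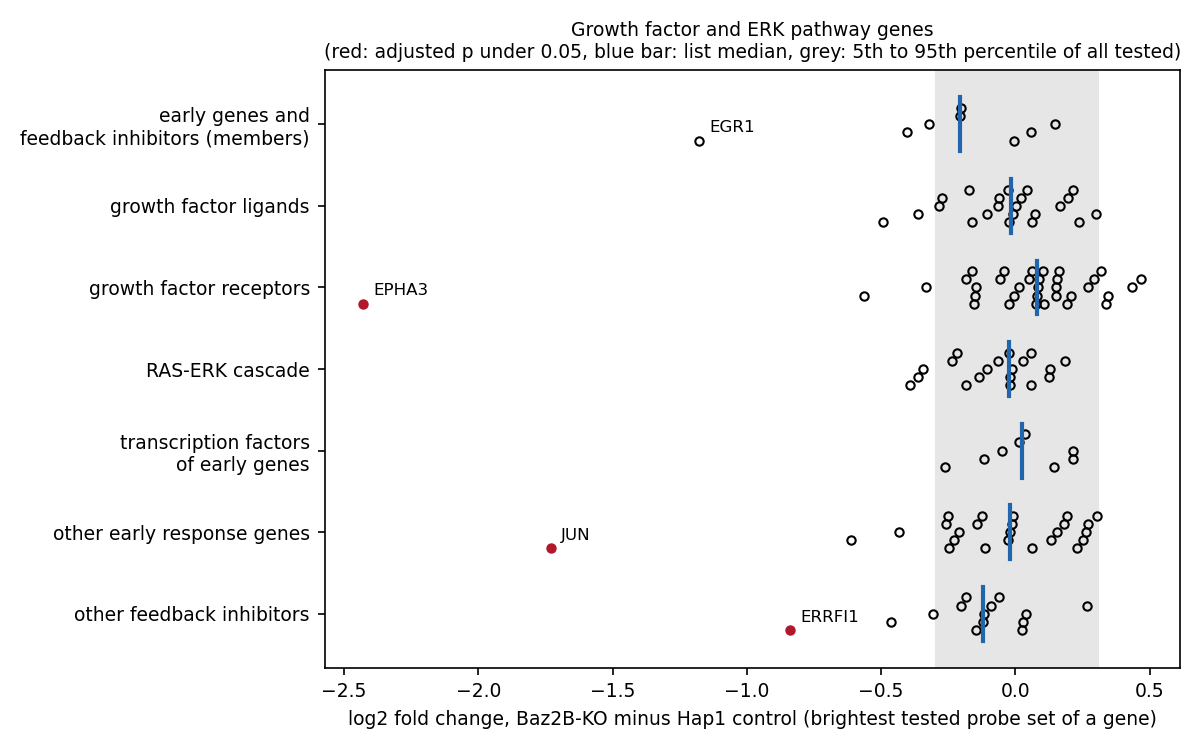
Log2 fold change, Baz2B-KO minus Hap1 control (horizontal axis), of each tested gene of 7 lists (rows, brightest probe set); red marks an adjusted p under 0.05, blue bars the list median, and the grey band the 5th to 95th percentile of all tested probe sets (-0.29 to 0.31). EPHA3, JUN and ERRFI1 are the called genes, EGR1 lies at -1.18, and most other points lie within the band.

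Over the whole table Baz2B-KO was higher on 31 probe sets and lower on 44, and the called changes were at least 0.70 in size on the log2 scale. Array medians lay between 3.53 and 3.55, and pairs of arrays correlated between 0.983 and 0.992. The median absolute difference between arrays was 0.115 within Baz2B-KO and 0.148 within the Hap1 control, against 0.119 to 0.161 across the lines. By this measure, Hap1 control replicate 2 was closer to either Baz2B-KO array (0.135 and 0.119) than to the other control. By correlation it was closer to the other control (0.9889) than to Baz2B-KO replicates 1 and 2 (0.9859 and 0.9871). BAZ2B has no probe set named here and was not analysed. Of 8 blood markers named by the platform, the highest mean was 4.71 and 5 lay under the filter. Of 5 epithelial markers, 4 were tested and CLDN4 lay under the filter. The probe sets of the 4 had means between 3.89, for KRT19, and 7.70, for the brighter of KRT18. The summed log2 level of the 8 blood markers was between 28.9 and 29.7 in Baz2B-KO and between 29.2 and 29.9 in the control. The 3 fibroblast markers summed to between 6.95 and 7.47 in Baz2B-KO and between 7.27 and 7.37 in the control, with DCN and LUM under the filter. The 6 epithelial probe sets summed to between 29.85 and 29.92 in Baz2B-KO and between 29.46 and 30.76 in the control, and the 4 endothelial ones, all under the filter, to between 9.74 and 9.91 in Baz2B-KO and between 9.19 and 9.20 in the control. Their part in the results was not tested.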

How the data were processed

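Total RNA was hybridised to Affymetrix Human Gene 2.0 ST arrays, 2 of Baz2B-KO and 2 of the Hap1 control, grouped by the sample titles. Array files were imported by the authors in oligo and normalised by RMA (no version is stated in the sources), and the deposited values are log2 intensities for 53617 probe sets, used with no further normalisation. RMA shrinks differences near the background. Arrays have no sequencing depth, so precision depends on how many there are: no permutation of 2 arrays against 2 gives a two-sided p below 0.333.

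As in the methods, 27722 probe sets with a value over 3.5 on 2 or more arrays were kept. Those with a gene in the platform annotation, 11235, were tested with limma 3.58.1 in R 4.3.3 (lmFit, eBayes, no covariates), Baz2B-KO minus Hap1 control, with Benjamini-Hochberg adjustment and a threshold of 0.05. A probe set named only by the supplementary result table was adjusted as 1 added to those tested; that table's fold changes and p-values were not used. For lists, a gene was given by its brightest tested probe set. Named in the text were all members, PDGFRA, EPHA3, KIT, JUN and FOS, every list gene that passed, up to 3 more of each list with the highest mean, and the 5 genes closest to EGR1. EGFR, KITLG, RRAS, MAPK3, MKNK1, MKNK2, KRT18, KRT19, CLDN4, DCN and LUM were added after their values were seen. The members and lists were chosen with earlier results of these data known. The fit was tested on simulated data. Alternatives were an intensity filter above 4, no filter, a test of every retained probe set, a trend with intensity, robust eBayes, a replicate block, 2 further scalings, 1 averaged value per gene, and each array left out. Figures were drawn with matplotlib 3.10.9.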

Additional observations from a re-analysis of the deposited data

How the results depend on the processing

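The brighter probe set of EGR1 passed with the filter above 4 (log2 fold change -1.18, adjusted p = 0.0385 from limma), an intensity trend (-1.18, 0.021) and robust eBayes (-1.18, 0.0406). It also passed with arrays centred on the median (-1.18, 0.0192) or on the 75th percentile (-1.13, 0.0477). The mean of both EGR1 probe sets passed too (-1.07, adjusted p = 0.0137 from limma). The dimmer probe set, at -0.96, missed the threshold with no filter (adjusted p = 0.0521 from limma) and with all retained probe sets tested (0.197). Both test more probe sets, and its unadjusted p from limma also rose, from 7.96e-05 to 0.000142 and 0.000703. Member probe sets called numbered 2 with the filter above 4, the trend, robust eBayes and either centring, and 0 with no filter (4 at an unadjusted p under 0.05) and with all retained probe sets (3 at an unadjusted p under 0.05). Over the table, 41 were called with no filter and 26 with all retained probe sets (4 higher and 22 lower), against 75 (31 higher and 44 lower). Leaving out 1 array gave 0 to 42 called probe sets, 0 to 1 called member probe sets, 0 to 2 called pathway genes, -1.47 to -0.88 for the brighter and -1.07 to -0.85 for the dimmer EGR1 probe set. No probe set passed without control replicate 1 (935 at an unadjusted p under 0.05), where JUN and EPHA3 both had an adjusted p of 0.0542 from limma, or without control replicate 2 (1419 at an unadjusted p under 0.05), where both had 0.0564. Without Baz2B-KO replicate 1, 38 passed and none was of a member (2 at an unadjusted p under 0.05). A fit of 3 arrays has 1 lone array, assumed to vary like the other line.

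With the replicate number as a block, 38 probe sets were called, 0 of them of members (4 at an unadjusted p under 0.05), and the dimmer EGR1 probe set (-0.96) had an adjusted p of 0.0728 from limma. The difference between replicates 1 and 2 in Baz2B-KO correlated with that in the controls at 0.158 across probe sets. The array names in the supplementary result table carry a mark, perhaps a passage, that goes with the replicate number. No label explains it, so with 2 pairs the numbers were not taken as a pairing. The block also ended the call of ERRFI1 (adjusted p = 0.0808 from limma). IER3 (17017018) turned to 0.0401 with the 75th percentile and to 0.0592 with the mean of its probe sets. Without 1 array, IER3 ranged from -0.23 to 0.22, EGR3 from -0.0437 to 0.16 and ETV4 from -0.43 to 0.0132. SPRY2 ranged from -0.31 to -0.09, SPRY4 from -0.64 to -0.01, DUSP5 from 0.03 to 0.27, the dimmer IER3 probe sets from 0.05 to 0.25 and IER2 from -0.51 to -0.30. These 5 genes or probe sets kept their direction and missed the threshold in all settings that gave a value. The cause of these changes was not tested.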
